A study of Mus musculus with 24 samples.

Results

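Gene expression in the whole lung of wild-type (WT) mice was compared between postnatal day (PND) 10 and PND 3, using the 6 WT arrays with these ages in their titles, 3 at each age, out of 24 arrays of the series. The lungs were the left lobes of untreated male C57Bl/6N Tac mice, WT littermates of the *Scnn1b*-Tg line, kept under specific-pathogen-free conditions. Each array held RNA pooled from several animals, so n counts pools. The labels name 2 animals for each of these arrays, whereas the study's methods speak of 3 mice per pool. The other 18 arrays hold WT lungs of PND 0 and PND 42 and *Scnn1b*-Tg lungs of all 4 ages. In *Scnn1b*-Tg mice the *Scgb1a1* promoter, active in airway club cells, drives a sodium channel subunit and dries the airway surface. The arrays were Affymetrix Mouse Gene 1.0 ST, which read whole transcripts, and levels are log2 values after RMA, a summary of the probes of a transcript, so that a difference of 1 is a 2-fold change. A gene with several rows was read from its brightest row, which left 19938 genes. All p values are from limma over the 24 arrays, adjusted by the Benjamini-Hochberg method across the 19938 genes. "Rose" and "fell" are used for genes with an adjusted p of 0.05 or less and a change of 2-fold or more.

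The mouse lung is born without true alveoli. In the first postnatal weeks septa grow out from the walls of the saccules, with myofibroblasts that lay down elastin at their tips, while capillaries and the basement membranes under epithelium and endothelium extend with them. In the same weeks the conducting airways acquire the secreted products of their mature lining, and resident immune cells settle in the tissue.

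The arrays carried the RNA of male lung. *Sftpc*, the surfactant protein gene of type II alveolar cells, lay between 13.8 and 14.01 log2 in all 6 pools, and *Scgb1a1*, the secretoglobin of club cells, between 13.39 and 13.66. *Xist* stayed between 3.9 and 4.13, near the floor of the array, and the Y-linked *Eif2s3y* between 7.48 and 8.09. Array medians ran from 4.79 to 4.86 and correlations between pools of an age from 0.979 to 0.989.

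The 3 PND 3 pools differed from each other more than the 3 PND 10 pools did. The mean distance between pools of an age, as the root mean square difference over all genes, was 0.31 log2 at PND 3 and 0.22 log2 at PND 10, against 0.36 log2 between pools of different age. Replicate 2 of PND 3 stood apart for inflammatory and for division genes. The mean level of 32 genes of inflammatory cytokines and acute phase proteins was 5.37, 6.51 and 5.24 at PND 3 and 5.29, 5.17 and 5.21 at PND 10. The mean level of 35 genes of mitosis was 6.33, 5.41 and 6.55 at PND 3 and 6.0, 6.26 and 6.27 at PND 10. Replicate 2 was thus the highest of the 6 pools for the first list and the lowest for the second. Replicate 3 of PND 3 had the highest mean level of 13 skeletal muscle genes, 4.47, 4.48 and 5.23 at PND 3 and 4.45, 4.27 and 4.43 at PND 10, led by *Acta1*, skeletal actin, at 8.05 against 5.17 to 5.82 in the other pools. Results that rest on these pools are given with and without them.

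**Figure D1:**
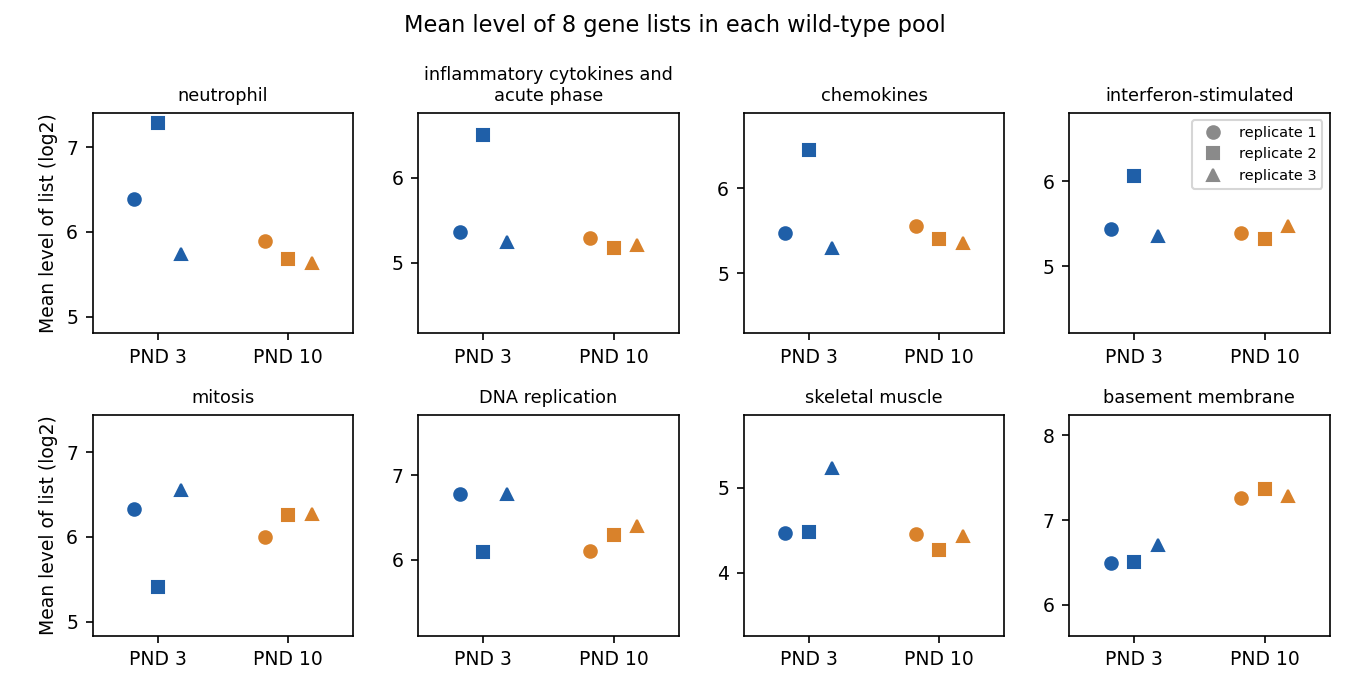
Mean RMA level (log2, y axis) of the members of 8 gene lists in each of the 6 WT pools, blue for PND 3 and orange for PND 10, with a marker shape for each replicate number. Replicate 2 of PND 3 lies highest for the 4 inflammatory lists and lowest for mitosis and DNA replication, while for basement membrane genes the pools of the 2 ages do not overlap. Every panel spans the same range of log2 values.

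From PND 3 to PND 10, 124 genes rose (0.622% of those tested) and 49 fell (0.246%). An adjusted p of 0.05 or less, without regard to fold, was reached by 600 genes in the upward and 302 in the downward direction. Before adjustment, 3173 of the 19938 genes had a limma p under 0.05. Of the rises, 103 were under 3-fold and 9 were 4-fold or more, with a median of 1.25 log2. Of the falls, 36 were under 3-fold and 7 were 4-fold or more, with a median of -1.29 log2. The 3 PND 10 pools all lay above the 3 PND 3 pools in the 124 rises, and all below them in 47 of the 49 falls. The exceptions were the mast cell protease *Mcpt4* and *Csta3*, a stefin. Among all genes, 2196 (11%) had pools without overlap in the upward and 2385 (12%) in the downward direction. Without PND 3 replicate 2 there were 107 rises and 31 falls, with 97 of the 124 and 24 of the 49 among them. There were 150 rises and 96 falls without PND 3 replicate 3. In 38 of the 49 falls PND 3 replicate 2 was the highest of the 3 PND 3 pools, and the median SD of these falls was 0.51 log2 at PND 3 and 0.19 log2 at PND 10. In bulk tissue, fewer cells of a type and less RNA per cell cannot be told apart, and the same holds for more.

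**Figure D2:**
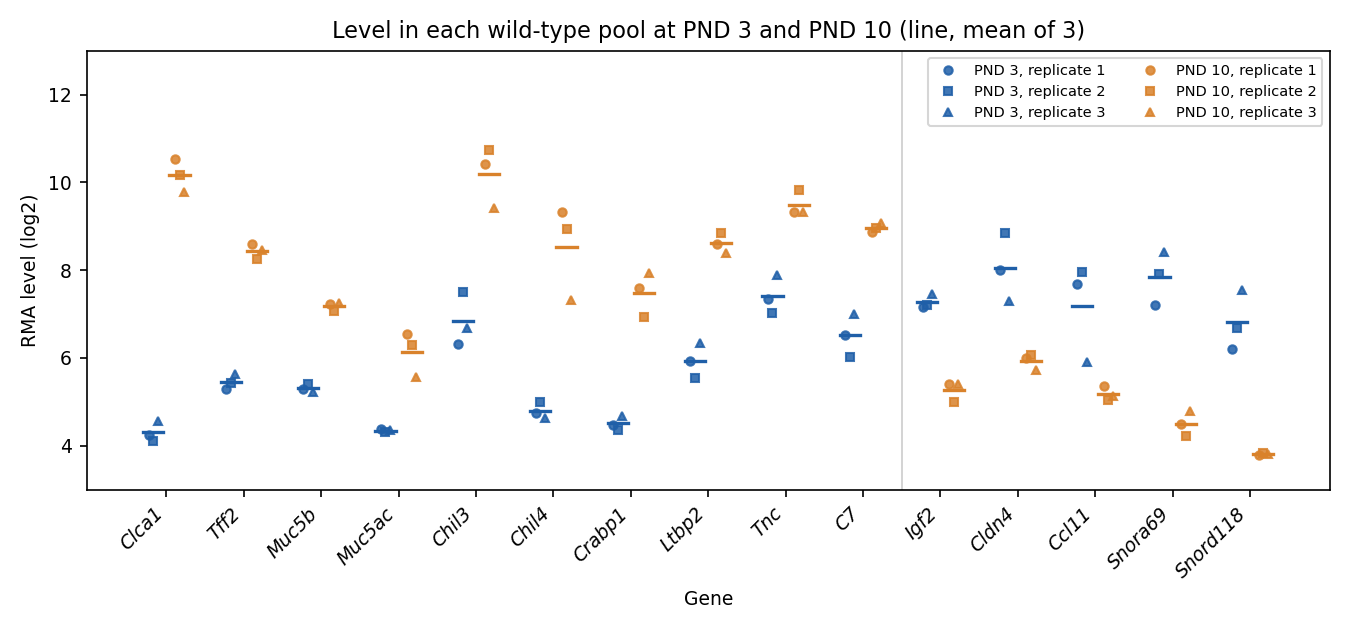
RMA level (log2, y axis) of 15 genes in each WT pool at PND 3 (blue) and PND 10 (orange), with a marker shape for each replicate number and a line at the mean of 3. To the left of the grey line are 10 genes that rose, from *Clca1* to *C7*, and to its right 5 that fell. *Ccl11* and *Cldn4* show the spread of the PND 3 pools.

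Secreted products of airway mucous cells gave the largest rise. *Clca1*, a secreted protein of goblet cells, was 4.24, 4.11 and 4.56 at PND 3 and 10.53, 10.17 and 9.79 at PND 10. It rose by 5.86 log2 (SE 0.22, adjusted p = 6.43e-14), from levels near the floor of the array, so the rise may be understated. *Tff2*, a trefoil peptide secreted with mucus, was 5.3, 5.43 and 5.62 at PND 3 and 8.59, 8.26 and 8.46 at PND 10 and rose by 2.98 log2 (SE 0.32, adjusted p = 9.41e-06). The gel-forming mucin *Muc5ac* was 4.37, 4.3 and 4.36 at PND 3 and 6.54, 6.29 and 5.56 at PND 10, a rise of 1.79 log2 (SE 0.2, adjusted p = 1.5e-05). *Muc5b*, the gel-forming mucin of the resting airway, was 5.29, 5.41 and 5.21 at PND 3 and 7.22, 7.07 and 7.25 at PND 10, a rise of 1.87 log2 (SE 0.36, adjusted p = 0.00321). In these 4 genes the PND 3 pools differed little, with an SD of 0.04 log2 (*Muc5ac*) to 0.23 log2 (*Clca1*), and *Muc5ac* varied most at PND 10 (SD 0.51 log2). *Bpifb1*, a secreted protein of the airway surface, was 7.09, 7.53 and 6.59 at PND 3 and 9.39, 9.31 and 8.97 at PND 10 and rose by 2.15 log2 (SE 0.35, adjusted p = 0.000628). Of the remaining members, *Slc26a4*, the anion exchanger pendrin, rose by 1.26 log2 (SE 0.25, adjusted p = 0.00373), and *Agr2*, a disulfide isomerase needed to fold mucins, by 1.04 log2 (SE 0.11, adjusted p = 1.21e-05). Altogether 7 of 19 measured genes of mucous cells rose and 0 fell, and the median of the 19 was 0.13 log2 against -0.01 log2 over all genes. Without PND 3 replicate 2, 6 of the 19 rose, since *Agr2* then changed by 0.98 log2 (adjusted p = 0.000179), and it also passed under 2-fold without PND 10 replicate 3, at 0.91 log2. *Slc26a4* did so without PND 10 replicate 1, at 0.997 log2. *Slc26a4* and *Muc5ac* shared the order of their PND 10 pools, highest in replicate 1 and lowest in replicate 3.

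The chitinase-like genes *Chil3* and *Chil4* rose. *Chil3* and *Chil4* encode the chitinase-like lectins Ym1 and Ym2, which bind sugars without cutting chitin and mark alternatively activated macrophages. *Chil3* was 6.31, 7.51 and 6.67 at PND 3 and 10.42, 10.73 and 9.42 at PND 10, a rise of 3.36 log2 (SE 0.37, adjusted p = 1.15e-05). *Chil4* was 4.74, 5.0 and 4.64 at PND 3 and 9.34, 8.93 and 7.32 at PND 10, a rise of 3.73 log2 (SE 0.32, adjusted p = 2.83e-07). *Chil4* varied widely at PND 10 (SD 1.06 log2), yet every PND 10 pool lay above every PND 3 pool in both genes. The acidic chitinase *Chia1* was 7.86, 8.2 and 7.82 at PND 3 and 9.67, 9.03 and 8.25 at PND 10, a rise of 1.02 log2 (SE 0.29, adjusted p = 0.0419), and the call ended when any of 5 of the 6 pools was left out (0.68 to 1.15 log2 in these fits). Of 9 chitinase and chitinase-like genes 3 rose and 0 fell, with a median of 0.16 log2 and 4 negative changes, and *Chil1* changed by 0.26 log2 (SE 0.3, adjusted p = 0.792), with its highest value in PND 3 replicate 2. *Ccl17*, a chemokine that attracts type 2 T helper cells, rose by 1.47 log2 (SE 0.29, adjusted p = 0.00357), while *Ccl11*, the eosinophil attractant eotaxin, fell by 2.0 log2 (SE 0.39, adjusted p = 0.0032) from 7.68, 7.96 and 5.91 at PND 3 and 5.36, 5.05 and 5.13 at PND 10. In *Ccl11* PND 3 replicate 3 stood far below the other PND 3 pools (SD 1.11 log2), and the pools of the ages still did not overlap. Without PND 3 replicate 2 its change was -1.61 log2, still called. Of 25 genes of the type 2 cytokine axis and alternative activation 3 rose and 1 fell (median 0.18 log2), and *Il4* itself lay between 3.55 and 3.87 in all 6 pools.

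*Chil3* and *Chil4* are near-identical neighbours, so their rows may share signal, and the bases before their starts are shown because the pair moved together. Each line holds 250 bases upstream of the RefSeq start (GRCm38.p6, minus strand, 5′ to 3′), at chr3:106167565-106167814 for *Chil3* and chr3:106219480-106219729 for *Chil4*. Capitals mark the 2 stretches of 20 or more bases that are identical in their alignment, 70 bases in all.
Chil3: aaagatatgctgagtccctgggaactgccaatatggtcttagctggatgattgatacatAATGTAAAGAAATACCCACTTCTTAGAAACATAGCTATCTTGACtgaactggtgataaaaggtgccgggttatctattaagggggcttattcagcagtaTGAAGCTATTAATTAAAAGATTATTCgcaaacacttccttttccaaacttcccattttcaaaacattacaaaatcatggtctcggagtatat
Chil4: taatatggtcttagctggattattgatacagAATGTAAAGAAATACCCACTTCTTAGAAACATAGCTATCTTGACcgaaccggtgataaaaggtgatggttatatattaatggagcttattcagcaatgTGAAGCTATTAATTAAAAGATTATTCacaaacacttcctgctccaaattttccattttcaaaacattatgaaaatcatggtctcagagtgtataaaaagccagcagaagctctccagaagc
The windows were identical at 202 of 279 aligned columns (72.4%). The other columns were 58 gap positions and 19 mismatches, so this share counts gaps as differences and is lower than the likeness where base faces base. A STAT6-type motif, TTC and GAA with any 4 bases between them, searched on both strands like the other motifs, occurred in neither window, in 4 of the 91 rises with a promoter in the table (4.4%) and in 5.33% of the 15614 tested genes with one. The TEAD motif GGAATG occurred in 13.2% of these rises, 15% of the falls and 11.3% of the tested genes, and the forkhead motif TGTTTAC in 2.2%, 2.5% and 2.72%.

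Basement membrane genes gave more rises than any other of the 63 gene lists. These membranes are sheets of laminin and type IV collagen networks, joined by nidogen and perlecan, under epithelium and around vessels. Of 31 measured members 14 rose and 0 fell. An adjusted p of 0.05 or less was reached by 19 in the upward and 1, *Tinagl1*, in the downward direction (-0.78 log2), and the median was 0.98 log2 against -0.01 log2 over all genes. Their mean level was 6.49, 6.51 and 6.71 at PND 3 and 7.26, 7.37 and 7.28 at PND 10, so that the pools of the 2 ages did not overlap. Such separation of list means was not particular to this list. It also held for 81 respiratory chain genes with 0 calls, at 8.73 to 8.82 at PND 3 and 8.62 to 8.71 at PND 10. Laminin chains made up 6 of the rises: *Lama2* (1.79 log2), *Lama3* (1.56), *Lamb2* (1.19), *Lama5* (1.15), *Lamb1* (1.13) and *Lamc1* (1.07). *Lama2*, the chain of muscle and mesenchyme, was 5.72, 5.52 and 5.91 at PND 3 and 7.45, 7.57 and 7.5 at PND 10 and rose by 1.79 log2 (SE 0.24, adjusted p = 0.000107). *Hspg2*, which encodes perlecan, was 5.76, 5.92 and 6.3 at PND 3 and 7.6, 7.87 and 7.66 at PND 10 and rose by 1.72 log2 (SE 0.2, adjusted p = 1.81e-05). The type IV collagen chains *Col4a1* and *Col4a2* rose by 1.07 and 1.08 log2, and *Nid1*, nidogen, by 1.01 log2. *Pxdn*, the peroxidase that crosslinks type IV collagen, rose by 1.21 log2. Mean WT levels at PND 0 were 7.91 (*Lama3*), 8.34 (*Lamb2*), 8.35 (*Lama5*), 9.41 (*Pxdn*), 7.45 (*Hspg2*) and 6.89 log2 (*Lama2*). At PND 3 they were 6.34, 7.01, 6.32, 8.07, 5.99 and 5.72, and at PND 10 7.9, 8.2, 7.47, 9.29, 7.71 and 7.51. These rises thus followed a lower level at PND 3 than at PND 0. *Npnt*, nephronectin, a ligand of the integrin *Itga8*, rose by 1.02 log2 (SE 0.13, adjusted p = 5.57e-05), and *Itga8* itself was 7.76, 7.39 and 8.12 at PND 3 and 9.08, 9.22 and 9.04 at PND 10, a rise of 1.36 log2 (SE 0.17, adjusted p = 5.24e-05). Without PND 3 replicate 2 the list again had 14 rises, with a median of 0.93 log2. *Col4a1* fell just under the 2-fold threshold without PND 3 replicate 1 (0.998 log2), as did *Npnt* without PND 10 replicate 3 (0.99 log2). *Agrn*, agrin, with 0.98 log2 (SE 0.14, adjusted p = 0.000234), and *Col4a3*, with 0.89 log2 (SE 0.19, adjusted p = 0.00623), passed on p but not on fold. Without PND 3 replicate 2 *Agrn* was called (1.07 log2, adjusted p = 0.000603), so the 14 rises there were not all the same genes.

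*Frem1*, a basement membrane protein of the Fraser complex, rose by 1.11 log2. *Hmcn1*, hemicentin-1, is a very large secreted protein linked to basement membranes. The array holds 77 rows for it, which were counted here as 1 gene, and all 77 passed as higher at PND 10, by 1.32 to 3.12 log2 with a median of 2.48 log2. Its brightest row was 8.65, 8.25 and 9.31 at PND 3 and 10.63, 10.94 and 10.54 at PND 10, a rise of 1.96 log2 (SE 0.35, adjusted p = 0.00172). With every row counted there were 229 rises in place of 124 and 52 falls in place of 49.

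Other matrix genes rose in smaller shares. Over the 6 matrix lists together, 29 of 167 distinct genes rose (17.4%, and 23.4% of all rises) and 0 fell, with a median of 0.27 log2. Of 19 elastic fibre genes 2 rose: *Ltbp2*, a microfibril protein of the latent TGF-beta binding family, was 5.93, 5.54 and 6.34 at PND 3 and 8.6, 8.84 and 8.4 at PND 10 and rose by 2.68 log2 (SE 0.22, adjusted p = 2.32e-07), and *Eln*, elastin, was 9.17, 9.72 and 9.27 at PND 3 and 10.77, 10.76 and 10.69 at PND 10 and rose by 1.35 log2 (SE 0.23, adjusted p = 0.000814). *Ltbp3* (0.98 log2, adjusted p = 0.000107), *Fbn2* (0.82, adjusted p = 0.000142) and *Ltbp4* (0.71, adjusted p = 0.000123) passed on p but stayed under 2-fold. Without PND 3 replicate 2, 3 of the 19 rose, *Ltbp3* being the third (1.02 log2). Of 41 matricellular proteins and proteoglycans 6 rose. *Tnc*, tenascin C, was 7.34, 7.02 and 7.88 at PND 3 and 9.31, 9.83 and 9.33 at PND 10, a rise of 2.08 log2 (SE 0.28, adjusted p = 0.000121). *Thbs2*, thrombospondin 2, rose by 1.63 log2 (SE 0.13, adjusted p = 2.29e-07) and *Fn1*, fibronectin, by 1.34 log2 (SE 0.24, adjusted p = 0.00154). *Vcan* (1.1 log2), *Aspn* (1.1) and *Postn* (1.04) were the others, and without PND 3 replicate 2 the count was 3 of 41, with *Postn* at 0.9 log2.

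Fibrillar collagens themselves did not pass 2-fold. *Col1a1* was 8.91, 8.56 and 9.21 at PND 3 and 9.76, 9.95 and 9.86 at PND 10, 0.96 log2 (SE 0.2, adjusted p = 0.00593), and *Col1a2* changed by 0.92 log2 (SE 0.17, adjusted p = 0.00265). The enzymes *Plod2*, a lysyl hydroxylase, and *P4ha3*, a prolyl hydroxylase, were the 2 rises among 21 genes of fibrillar collagen and its processing, at 1.03 and 1.06 log2. Neither reached 2-fold without PND 3 replicate 2 (0.99 and 0.93 log2), and without PND 3 replicate 3 the count was 5 of 21. *Plod2* also missed it without PND 10 replicate 3 (0.98 log2) and *P4ha3* without PND 10 replicate 2 (0.92 log2). Of 23 other collagen chains 2 rose, *Col12a1*, a chain that decorates collagen fibrils, by 1.76 log2 (SE 0.22, adjusted p = 4.31e-05) and *Col6a3*, a chain of microfibrillar type VI collagen, by 1.54 log2 (SE 0.2, adjusted p = 6.96e-05). Its partner chain *Col6a1* changed by 0.09 log2 (SE 0.15, adjusted p = 0.863). Of 32 matrix proteases and inhibitors 3 rose (1 without PND 10 replicate 2, 5 without PND 10 replicate 3), all of the ADAMTS family, *Adamts12* by 1.31, *Adamts1* by 1.08 and *Adamts8* by 1.05 log2. *Adamts8* dropped under 2-fold without PND 3 replicate 2 (0.96 log2), PND 10 replicate 1 (0.92 log2) or PND 10 replicate 2 (0.94 log2). *Mmp12*, the macrophage elastase, was 5.03, 5.68 and 4.78 at PND 3 and 6.5, 6.6 and 5.4 at PND 10, 1.0 log2 (SE 0.27, adjusted p = 0.0374), just under 2-fold. Without PND 3 replicate 2 it was called as higher, at 1.26 log2 (adjusted p = 0.0179).

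**Figure D3:**
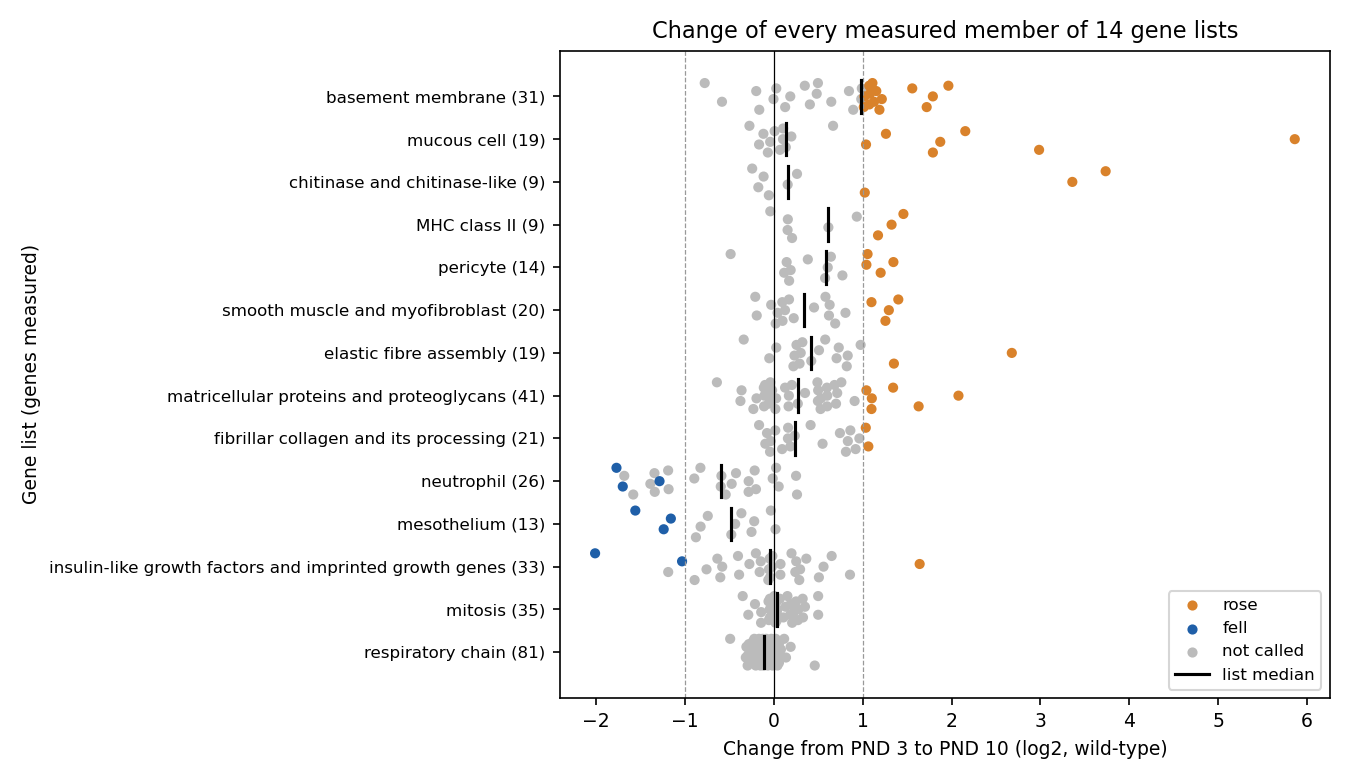
Change from PND 3 to PND 10 in WT lung (log2, x axis) of every measured member of 14 gene lists, with the number measured in parentheses, orange where a gene rose, blue where it fell and grey otherwise. The vertical bar is the list median and dashed lines mark 2-fold. Basement membrane has 14 orange points and a median of 0.98, while mitosis and respiratory chain genes lie close to 0.

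Some genes of the mesenchyme that borders capillaries and septa rose. Of 14 pericyte genes 4 rose, with a median of 0.59 log2. *Pdgfrb*, the PDGF receptor of pericytes, was 7.21, 7.33 and 7.47 at PND 3 and 8.79, 8.73 and 8.52 at PND 10, a rise of 1.35 log2 (SE 0.13, adjusted p = 2.53e-06), and *Rgs5*, a regulator of G protein signals in pericytes, rose by 1.2 log2 (SE 0.17, adjusted p = 0.000123). *Notch3* rose by 1.05 log2 (SE 0.13, adjusted p = 4.85e-05). Of 20 smooth muscle and myofibroblast genes 4 rose, with a median of 0.34 log2. Among them *Pdgfra*, the PDGF receptor of septal myofibroblasts and lipofibroblasts, was 7.18, 6.92 and 7.33 at PND 3 and 8.35, 8.52 and 8.32 at PND 10, a rise of 1.26 log2 (SE 0.24, adjusted p = 0.00287). *Egfem1* rose by 1.4 log2 (SE 0.21, adjusted p = 0.000363) and *P2ry14*, a receptor of UDP sugars, by 1.29 log2 (SE 0.19, adjusted p = 0.000302). *Acta2*, smooth muscle actin, was 11.49, 11.21 and 11.5 at PND 3 and 11.34, 11.3 and 11.48 at PND 10, with overlapping pools (-0.03 log2 (SE 0.18, adjusted p = 0.975)). The ligand *Pdgfa* changed by -0.29 log2 (SE 0.19, adjusted p = 0.525). At PND 0 the WT means of *Pdgfrb* and *Pdgfra* were 8.91 and 8.58 log2, above those of PND 10 (8.68 and 8.4). *Rgs5*, *Egfem1* and *P2ry14* were lower at PND 0 (6.58, 6.46 and 8.06 log2) than at PND 10 (7.57, 8.47 and 9.68). In these lists 3 of 14 and 3 of 20 rose without PND 3 replicate 2. Of 20 lipofibroblast and matrix fibroblast genes 2 rose, *Itga8* and *Npnt*, with a median of 0.03 log2 and as many positive as negative changes (10 each).

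Of 30 genes of capillary and large vessel endothelium 1 rose, *Vwf*, von Willebrand factor, by 1.1 log2 (SE 0.22, adjusted p = 0.00383), and without PND 3 replicate 1 it fell short of 2-fold at 0.96 log2. *Cdh5* (0.93 log2), *Kdr* (0.91), *Tie1* (0.6) and *Pecam1* (0.53) passed on p with smaller changes, and the median of the list was 0.29 log2, with 26 of 30 changes positive and 7 genes with an adjusted p of 0.05 or less. The mean level of the list was 7.47, 7.42 and 7.34 at PND 3 and 7.74, 7.72 and 7.74 at PND 10, without overlap between the ages. *Notch1* rose by 1.17 log2 (SE 0.2, adjusted p = 0.000985).

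Several signalling and metabolic genes stood out singly. *Crabp1*, a cytosolic protein that binds retinoic acid, was 4.48, 4.36 and 4.68 at PND 3 and 7.58, 6.93 and 7.93 at PND 10, a rise of 2.97 log2 (SE 0.18, adjusted p = 7.35e-10). Its PND 3 levels lay below 5 log2, where the array reads little, so the rise may be understated. In the opposite direction *Aldh1a2*, which makes retinoic acid from retinal, was 7.57, 7.25 and 7.32 at PND 3 and 5.58, 5.73 and 6.16 at PND 10 and fell by 1.56 log2 (SE 0.29, adjusted p = 0.00208). The other 30 genes of retinoid storage, synthesis and signalling did neither. *Wnt11*, a WNT ligand, rose by 1.33 log2 (SE 0.13, adjusted p = 2.53e-06) and *Rspo2*, which enhances WNT signals, by 1.0 log2 (SE 0.25, adjusted p = 0.0191). The call of *Rspo2* ended without PND 3 replicate 2 (0.84 log2), PND 10 replicate 2 (1.04 log2, adjusted p = 0.0616) or PND 10 replicate 3 (0.91 log2). *Slitrk6*, a neuronal-type adhesion receptor, was 5.54, 4.95 and 5.74 at PND 3 and 7.39, 7.17 and 7.41 at PND 10, a rise of 1.92 log2 (SE 0.22, adjusted p = 1.74e-05). In limma, 0 of 20 genes of fibroblast growth factors and receptors, 0 of 16 of hedgehog and 0 of 34 of BMP and TGF-beta signalling were called, while 2, 2 and 11 of them had a p under 0.05 before adjustment. In the last list 7 of the 34 reached an adjusted p of 0.05 or less in the upward and 0 in the downward direction, all under 2-fold. Its mean level was 6.52 to 6.65 at PND 3 and 6.76 to 6.78 at PND 10, and *Tgfb2* had the largest change, 0.89 log2 (SE 0.15, adjusted p = 0.000725). Of fibroblast growth factors and receptors 1 passed on p in each direction, and of hedgehog genes 0.

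Complement and antigen presentation each had a small set of rises. *C7*, a component of the membrane attack complex, was 6.52, 6.02 and 7.0 at PND 3 and 8.88, 8.96 and 9.07 at PND 10, a rise of 2.46 log2 (SE 0.3, adjusted p = 3.13e-05), and *A2m*, a broad protease inhibitor related to complement C3, rose by 1.74 log2 (SE 0.32, adjusted p = 0.00192). These were 2 of 34 complement genes, whose median was 0.01 log2. Of 9 genes of MHC class II 3 rose and 0 fell, with a median of 0.61 log2. *H2-Ab1* was 8.19, 7.96 and 8.15 at PND 3 and 9.65, 9.47 and 9.56 at PND 10, a rise of 1.46 log2 (SE 0.2, adjusted p = 0.000111), *H2-Aa* rose by 1.32 log2 (SE 0.19, adjusted p = 0.000154) and the invariant chain *Cd74* by 1.17 log2 (SE 0.14, adjusted p = 3.43e-05). The 3 rises were called without PND 3 replicate 2 as well. *H2-Eb1* stayed under 2-fold (0.93 log2 (SE 0.17, adjusted p = 0.00179)). In limma, 0 of 29 genes of T and NK cells and 0 of 18 of B and plasma cells were called, with 4 and 0 at a p under 0.05 before adjustment, and *Cd3e* changed by 0.28 log2 (SE 0.11, adjusted p = 0.17).

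Few markers of the differentiated epithelium were called. *Sftpc* changed by -0.05 log2 (SE 0.27, adjusted p = 0.968), *Ager*, the receptor that marks type I cells, by -0.19 log2 (SE 0.14, adjusted p = 0.588), and *Foxj1*, the regulator of motile cilia, by -0.25 log2 (SE 0.19, adjusted p = 0.616). Of 22 type II genes 2 rose, *Acoxl* by 1.27 log2 (SE 0.25, adjusted p = 0.0035) and *Chia1*, and of 20 type I genes 1 rose, *Igfbp2*, a carrier of insulin-like growth factors, by 1.64 log2 (SE 0.24, adjusted p = 0.000284). In limma, 0 of 29 ciliated cell genes and 0 of 32 lung lineage transcription factors were called, with 12 and 3 at a p under 0.05 before adjustment, and *Nkx2-1* changed by -0.18 log2 (SE 0.16, adjusted p = 0.687). The ciliated list had negative changes in 25 of its 29 genes, a median of -0.29 log2 and 4 genes with an adjusted p of 0.05 or less in the downward direction. Its mean level was 5.45, 5.5 and 5.43 at PND 3 and 5.17, 5.18 and 5.22 at PND 10, without overlap between the ages, as for several other lists. Of 18 club cell genes 1 fell, the uroplakin *Upk3a*, by 1.09 log2 (SE 0.16, adjusted p = 0.000302), and without PND 3 replicate 2 it fell short of 2-fold (-0.98 log2), while 2 club cell genes fell without PND 3 replicate 3. *Scgb3a2*, another secretoglobin, was 9.44, 9.25 and 9.34 at PND 3 and 8.37, 8.65 and 8.81 at PND 10, -0.73 log2 (SE 0.18, adjusted p = 0.0201), and passed on p but not on fold. Changes were negative in 15 of the 18 club cell genes (median -0.27 log2), and the mean level of the list was 8.49, 8.74 and 8.47 at PND 3 and 8.23, 8.16 and 8.3 at PND 10, again without overlap.

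*Igf2* and *Igf2bp3* were among the falls. *Igf2*, the imprinted insulin-like growth factor, was 7.15, 7.21 and 7.46 at PND 3 and 5.4, 4.98 and 5.41 at PND 10 and fell by 2.01 log2 (SE 0.19, adjusted p = 2.12e-06). *Igf2bp3*, which binds its mRNA, fell by 1.03 log2 (SE 0.14, adjusted p = 0.000123), and the call ended without PND 3 replicate 2 (-0.85 log2) or PND 10 replicate 3 (-0.997 log2). The cell cycle inhibitor *Cdkn1c*, also imprinted, changed by -0.89 log2 (SE 0.16, adjusted p = 0.00173), and *Dlk1* by -1.19 log2 (SE 0.44, adjusted p = 0.145). Of 33 genes of insulin-like growth factors and imprinted growth genes 1 rose and 2 fell. *Agtr2*, the second angiotensin receptor, was 5.17, 5.27 and 5.3 at PND 3 and 3.83, 4.0 and 3.95 at PND 10 and fell by 1.32 log2 (SE 0.24, adjusted p = 0.00168). Other inhibitors of the cell cycle moved in opposite directions: *Cdkn2c* rose by 1.24 log2 (SE 0.25, adjusted p = 0.0052) and *Cdkn2b* fell by 1.06 log2 (SE 0.19, adjusted p = 0.00176), and neither call held without PND 3 replicate 2 (0.93 and -0.84 log2). *Cdkn2c* also lost its call without PND 10 replicate 2 (1.0 log2, adjusted p = 0.052), and *Cdkn2b* without PND 3 replicate 1 or PND 10 replicate 3 (both -0.99 log2).

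Mesothelium and surface epithelium supplied further falls. Of 13 mesothelial genes 3 fell and 0 rose, with a median of -0.48 log2, and the same count held without PND 3 replicate 2. *Msln*, mesothelin, was 8.38, 9.12 and 8.44 at PND 3 and 7.57, 6.99 and 7.66 at PND 10 and fell by 1.24 log2 (SE 0.22, adjusted p = 0.00128). Without PND 3 replicate 2 its change was -1.004 log2, just past 2-fold. *Upk3b* fell by 1.16 log2 (SE 0.21, adjusted p = 0.00167), and *Aldh1a2* was the third. *Cldn4*, a claudin of tight junctions, was 8.01, 8.84 and 7.3 at PND 3 and 6.0, 6.07 and 5.71 at PND 10 and fell by 2.12 log2 (SE 0.29, adjusted p = 0.000111). *S100a14*, an epithelial calcium-binding protein, was 7.41, 8.02 and 6.49 at PND 3 and 5.83, 5.84 and 5.29 at PND 10 and fell by 1.65 log2 (SE 0.32, adjusted p = 0.00284). In both genes the PND 3 pools spread widely (SD 0.77 log2 each) and still all lay above the PND 10 pools. Without PND 3 replicate 2 the changes were -1.72 log2 (*Cldn4*) and -1.3 log2 (*S100a14*), both still called. Of 23 basal and squamous cell genes 3 fell, *Cldn4*, *Anxa8*, an annexin, by 1.18 log2 (SE 0.18, adjusted p = 0.000284) and *Asprv1*, a protease of stratified epithelium, by 2.24 log2 (SE 0.5, adjusted p = 0.00938). The last call ended without PND 3 replicate 2 (-1.63 log2, adjusted p = 0.0737) or PND 10 replicate 3 (-2.02 log2, adjusted p = 0.0502). *Krt15*, a basal keratin, was 5.13, 5.03 and 6.91 at PND 3 and 4.15, 4.01 and 4.2 at PND 10, -1.57 log2 (SE 0.47, adjusted p = 0.0631), high in PND 3 replicate 3, the pool with raised muscle genes. Without PND 3 replicate 2 it passed as lower, at -1.9 log2 (adjusted p = 0.049). *Depp1*, a target of FOXO factors, fell by 1.52 log2 (SE 0.25, adjusted p = 0.000765) and *Gdpd2*, a phosphodiesterase, by 1.55 log2 (SE 0.31, adjusted p = 0.00394).

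Calls among genes of neutrophils and other myeloid cells depended on the PND 3 pools. The mean level of 26 neutrophil genes was 6.38, 7.29 and 5.74 at PND 3 and 5.89, 5.68 and 5.63 at PND 10, with overlap between the ages, and 3 of the 26 fell (median -0.59 log2). *Stfa3*, a stefin of neutrophils, was 7.85, 8.49 and 6.72 at PND 3 and 6.07, 5.91 and 5.77 at PND 10 and fell by 1.77 log2 (SE 0.36, adjusted p = 0.0052). *Olfm4*, a granule protein, was 5.81, 7.35 and 4.95 at PND 3 and 4.57, 4.23 and 4.2 at PND 10 and fell by 1.7 log2 (SE 0.41, adjusted p = 0.0157). *Camp*, the antimicrobial cathelicidin, was 6.86, 6.98 and 5.7 at PND 3 and 5.16, 5.16 and 5.35 at PND 10 and fell by 1.29 log2 (SE 0.33, adjusted p = 0.0253). Only *Stfa3* stayed called without PND 3 replicate 2, the other two then changing by -1.04 and -1.05 log2 (adjusted p = 0.105 and 0.14), and the median of the list became -0.24 log2. Leaving out PND 3 replicate 3 instead gave 9 falls of 26 and a median of -0.98 log2, and leaving out PND 10 replicate 2 or 3 gave 1. *Olfm4* also lost its call without PND 10 replicate 2 or 3 (-1.65 and -1.63 log2). *Camp* did so without any pool but PND 3 replicate 3 (-1.35 to -1.05 log2). *S100a8*, a calcium-binding protein of neutrophils, was 9.4, 10.21 and 8.19 at PND 3 and 8.31, 7.86 and 7.46 at PND 10, -1.39 log2 (SE 0.47, adjusted p = 0.103), and *Stfa2* changed by -1.58 log2 (SE 0.46, adjusted p = 0.0514).

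*Clec5a*, a lectin receptor of myeloid cells, was 5.52, 7.37 and 5.39 at PND 3 and 4.6, 4.22 and 4.7 at PND 10 and fell by 1.59 log2 (SE 0.37, adjusted p = 0.0145). *Ccl9*, a myeloid chemokine, fell by 1.3 log2 (SE 0.32, adjusted p = 0.0172), *Csf2*, the growth factor of granulocytes and macrophages, by 1.27 log2 (SE 0.22, adjusted p = 0.0013), and *Aqp3*, a water and glycerol channel, by 1.31 log2 (SE 0.38, adjusted p = 0.0496). Without PND 3 replicate 2 these became -0.95, -0.85, -0.99 and -0.77 log2, and none of the 4 calls held. *Clec5a* also lost its call without PND 10 replicate 2 (-1.44 log2). *Ccl9* lost it without PND 10 replicate 2 or 3 (-1.21 and -1.25 log2), and *Aqp3* without any pool but PND 3 replicate 1. *Ly6a2* was 6.76, 7.49 and 6.74 at PND 3 and 5.66, 4.78 and 5.68 at PND 10, -1.62 log2 (SE 0.43, adjusted p = 0.0314), and kept its call only without PND 3 replicate 3 or PND 10 replicate 3 among the single pools left out, with -1.77 to -1.33 log2 over the 6 fits. The cytokine *Il1a* was 5.08, 7.89 and 4.57 at PND 3 and 4.38, 4.72 and 4.43 at PND 10, and its change of -1.34 log2 (SE 0.51, adjusted p = 0.163) became -0.31 log2 without that pool. Of 32 genes of inflammatory cytokines and acute phase proteins 1 fell and 0 rose, with 1 fall without PND 3 replicate 2, 3 without PND 3 replicate 3 and 2 without PND 10 replicate 3. Why this pool differed from the other PND 3 pools was not tested.

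*Cpa3*, a mast cell protease, fell by 1.17 log2 (SE 0.17, adjusted p = 0.000302), and its pools stood apart by age with or without PND 3 replicate 2 (6.31, 5.8 and 5.91 at PND 3 and 4.93, 4.71 and 4.87 at PND 10). *Kit*, the stem cell factor receptor of mast cells and other lineages, rose by 1.25 log2 (SE 0.24, adjusted p = 0.00255). Of 30 macrophage genes 1 fell, *Ccl9*, and *Marco*, a scavenger receptor, changed by -0.37 log2 (SE 0.32, adjusted p = 0.688).

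Small nucleolar RNAs gave the 3 largest falls among the 49, which count only genes that have a row with exactly 1 gene symbol. *Snora69* was 7.21, 7.92 and 8.42 at PND 3 and 4.5, 4.21 and 4.79 at PND 10 and fell by 3.35 log2 (SE 0.34, adjusted p = 3.4e-06). *Snord118*, the U8 RNA of ribosomal RNA processing, was 6.19, 6.68 and 7.55 at PND 3 and 3.78, 3.82 and 3.82 at PND 10 and fell by 3.0 log2 (SE 0.49, adjusted p = 0.000724). *Snora23* was 8.95, 9.53 and 10.02 at PND 3 and 7.09, 7.21 and 6.92 at PND 10 and fell by 2.43 log2 (SE 0.58, adjusted p = 0.0154). In all 3 genes PND 3 replicate 3 was the highest pool, and no PND 10 pool reached a PND 3 pool. The call of *Snora23* ended without PND 3 replicate 3 (adjusted p = 0.0592) or any PND 10 pool (adjusted p = 0.0507 to 0.0551), at -2.5 to -2.17 log2. *Snord14e* rose by 1.28 log2 (SE 0.34, adjusted p = 0.031), and the call ended without any pool but PND 10 replicate 3. Over 68 small nucleolar and other small RNAs 1 rose and 3 fell, and the median was -0.06 log2. The protocol labels random-primed whole transcripts, so such short RNAs are read together with whatever precursor or host transcript carries them.

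Of 296 microRNA genes 1 rose, *Mir15a* (0.338%, against 0.622% of all genes), and 0 fell (0.246% of all genes did). MicroRNA genes were thus called no more often than genes in general. Its row was 4.1, 4.31 and 4.71 at PND 3 and 5.74, 6.35 and 4.83 at PND 10, a rise of 1.26 log2 (SE 0.28, adjusted p = 0.00931), and the call ended without PND 3 replicate 1 (1.13 log2, adjusted p = 0.0562) or PND 10 replicate 2 (0.91 log2, adjusted p = 0.0922). The row reads the gene, not a mature strand. Both mature strands in RefSeq (GRCm38.p6, minus strand) are shown with the seed, bases 2 to 8, in capitals, to set the gene among those with the same seed. The 5p strand lies at chr14:61632075-61632096 and the 3p strand at chr14:61632038-61632059.
mmu-miR-15a-5p: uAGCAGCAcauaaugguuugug
mmu-miR-15a-3p: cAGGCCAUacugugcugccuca
Of 11 microRNA genes with the 5p seed 6 are on the array, and none of the 5 others passed. *Mir15b* (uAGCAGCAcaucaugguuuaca) changed by 0.53 log2 (SE 0.27, adjusted p = 0.354). *Mir16-1* (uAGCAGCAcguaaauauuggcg), which lies in the same cluster, changed by -0.09 log2 (SE 0.15, adjusted p = 0.861).

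Division genes gave no calls when each was read from its brightest row. In limma, 0 of 35 mitosis genes (median 0.04 log2) and 0 of 31 DNA replication genes (median -0.27 log2) were called, with 0 and 8 at a p under 0.05 before adjustment. *Top2a*, the topoisomerase of dividing cells, has 2 rows. The brighter was 7.83, 6.59 and 8.13 at PND 3 and 7.67, 8.21 and 8.15 at PND 10, 0.5 log2 (SE 0.33, adjusted p = 0.525). The dimmer was 5.43, 6.6 and 7.06 at PND 3 and 4.93, 5.44 and 4.84 at PND 10, -1.29 log2 (SE 0.3, adjusted p = 0.0108 over all rows with 1 gene), and would have been called as lower, so the rows disagree. PND 3 replicate 2 lay far below the other PND 3 pools in the brighter row, and without it the change there was 0.04 log2 and the medians of the lists -0.28 and -0.5 log2. Over all 19938 genes 3173 had a p under 0.05 before adjustment, while 0.622% rose and 0.246% fell. Lists of 31 or 35 genes would therefore often hold 0 calls. Of 81 respiratory chain genes, 59 ribosomal protein genes and 27 replication-dependent histone genes 0 were called, with medians of -0.11, -0.03 and 0.05 log2 and 5, 1 and 2 genes at a p under 0.05 before adjustment. Of 17 clock genes 0 were called, with 5 under 0.05 before adjustment, and *Arntl*, a core clock factor, changed by -0.17 log2 (SE 0.16, adjusted p = 0.736). The lungs were taken at a fixed time of day, according to the study's methods.

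The rising genes were long. The median span from start to end in RefSeq was 67.0 kb for the 123 rises with a span, 6.14 kb for the 49 falls and 17.7 kb over all genes. Among the 4964 longest genes, 46.3 kb or more, 71 rose (1.43%) and 4 fell, whereas among the 4964 shortest 9 rose (0.181%) and 24 fell. The *Scnn1b*-Tg rises described next had a median span of 28.6 kb. Of the rises 120 and of the falls 46 were protein-coding. At PND 3, 21 of the rises lay below 5 log2, where the array reads little, and 15 of the falls did so at PND 10.

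The *Scnn1b*-Tg lungs offer the same interval in 6 other pools. In them 100 genes rose (0.502%) and 55 fell (0.276%), counted in the same way. Of the 124 WT rises 51 also rose there (41.1% of the WT and 51% of the *Scnn1b*-Tg rises), and of the 49 WT falls 20 also fell (40.8% and 36.4%). None was called in the opposite direction. The change was positive in *Scnn1b*-Tg lungs for all 124 WT rises and negative for 47 of the 49 falls, against 47.4% and 52.6% of all genes. Medians there were 0.87 log2 for the WT rises and -0.95 log2 for the WT falls. The smaller medians apply to genes chosen for their size in WT, so they are no measure of a weaker change.

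The difference between the genotypes itself passed for 2 genes (0.01%). *Clca1* rose by 3.33 log2 in *Scnn1b*-Tg against 5.86 log2 in WT lungs, a difference of -2.54 log2 (SE 0.31, adjusted p = 0.000754). *Thbs2* changed by 0.4 log2 against 1.63 log2, a difference of -1.23 log2 (SE 0.19, adjusted p = 0.0165). The next 3 genes by p were *Mmp12* (2.14 log2, adjusted p = 0.104), *Sncg* (1.02 log2, adjusted p = 0.201) and *Lrp4* (-0.9 log2, adjusted p = 0.297). Before adjustment 1336 genes had p under 0.05. The count of 2 moved between 1 and 21 when single pools were left out, and 21 was the count without WT PND 3 replicate 2. *Eln* (0.25 log2), *Pdgfra* (0.36 log2), *Npnt* (0.27 log2) and *Muc5ac* (0.58 log2) did not rise in *Scnn1b*-Tg lungs, but their differences between the genotypes were not among the 2 that passed. Conversely 7 mitosis genes rose in *Scnn1b*-Tg lungs and 0 in WT lungs, and again none of these differences passed.

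**Figure D4:**
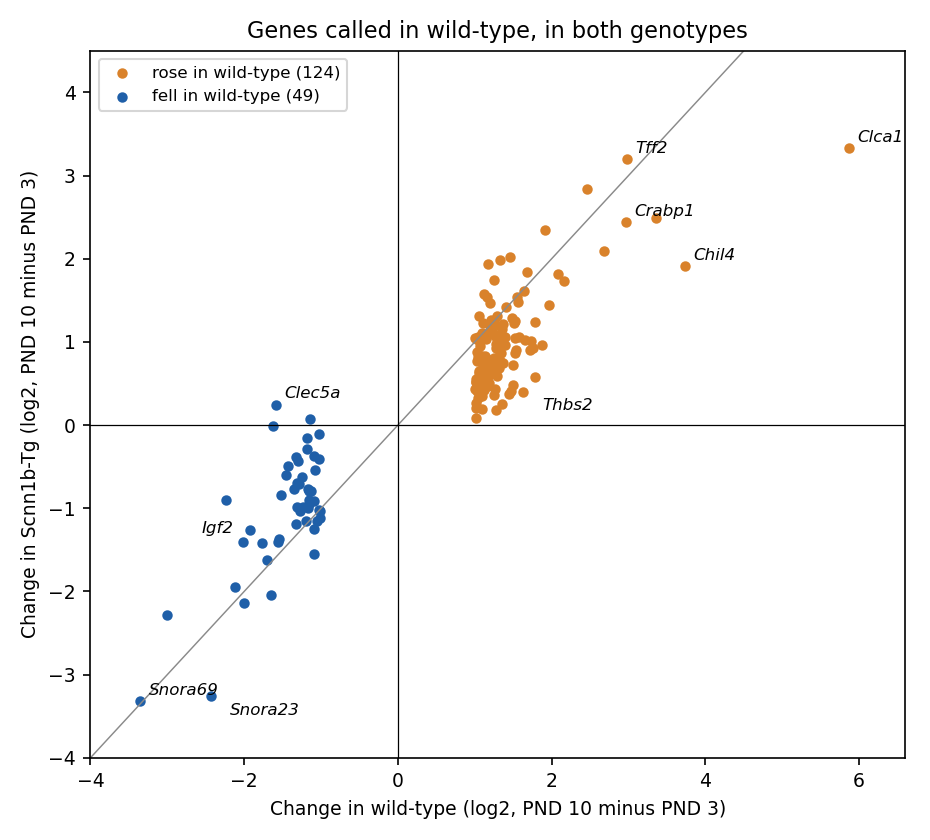
Change from PND 3 to PND 10 (log2) of the 173 genes that rose (orange) or fell (blue) in WT lung, in WT on the x axis and in *Scnn1b*-Tg on the y axis, with the line of equal change. All 124 orange points lie above 0 and 47 of 49 blue points below it, and *Clca1* lies at 5.86 on the x axis and 3.33 on the y axis.

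Levels at the other ages place the interval. The median level of the 124 rises in WT lungs was 7.04, 6.14, 7.63 and 6.43 log2 from PND 0 to PND 42, in order of age. The genes were chosen for a rise from PND 3 to PND 10 in these pools, so the order of those ages follows from the choice. For the 49 falls the medians were 6.57, 6.81, 5.44 and 5.11 log2. Since the WT comparisons of neighbouring ages share pools, the step before was read from *Scnn1b*-Tg lungs, which share none with the WT pools. There, 61 of the 124 genes fell from PND 0 to PND 3 (49.2%, against 6.78% of all genes) and 5 rose (2.07% of all genes did), with a median of -0.97 log2. Of the 49 WT falls 16 rose in that step and 0 fell. From PND 10 to PND 42 in *Scnn1b*-Tg lungs, 28 of the 124 fell (3.32% of all genes did) and 20 rose (1.66% of all genes did).

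Single genes followed different courses in WT lungs. From the youngest to the oldest age *Tnc* had mean levels of 8.22, 7.41, 9.49 and 4.9 log2, high before and after the PND 3 dip and lowest in the adult. *Eln* had the same shape, with 10.89, 9.39, 10.74 and 8.05 log2. *H2-Ab1* climbed through all 4 ages, from 6.46 to 10.49 log2, and *Igf2* declined through all 4, from 8.02 to 4.92 log2. *Crabp1* was high at PND 10 alone, with 4.47, 4.51, 7.48 and 4.33 log2. The fall of *Snora69* was the return from a peak at PND 3, with 4.1, 7.85, 4.5 and 4.41 log2.

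**Figure D5:**
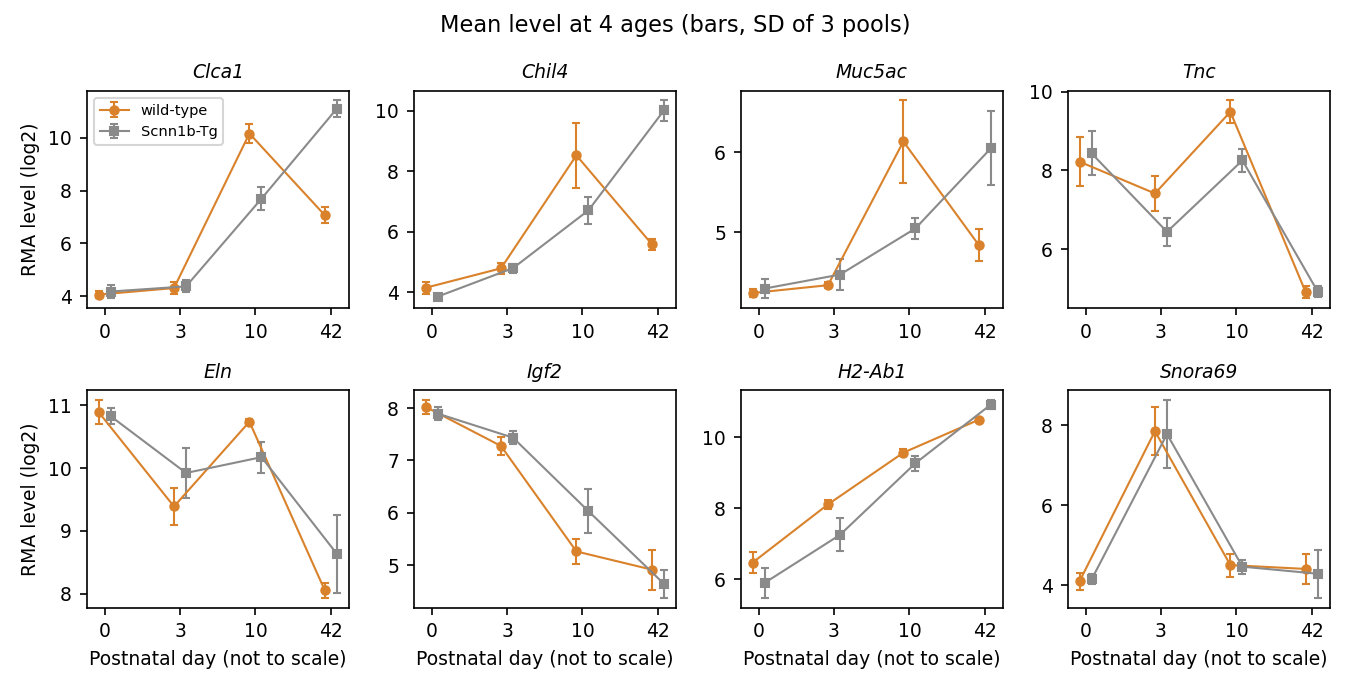
Mean RMA level (log2, y axis) of 8 genes at 4 postnatal ages (x axis, not to scale) in WT (orange) and *Scnn1b*-Tg (grey) lungs, with bars for the SD of 3 pools. In WT lungs *Clca1*, *Chil4*, *Muc5ac* and *Tnc* are highest at PND 10, *Igf2* declines and *H2-Ab1* climbs through the 4 ages, and *Snora69* peaks at PND 3.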

How the data were processed

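RNA of 24 whole-lung pools was measured on Affymetrix Mouse Gene 1.0 ST arrays. Per the labels, the authors summarized the probes by RMA in Partek 6.5, and the study's methods add quantile normalization. The deposited values are log2 levels, 1 for each of 35556 rows and each array. Of these rows 21789 name exactly 1 gene (19938 genes), 1621 name several and 12146 name none. RefSeq matched 21698 identifiers and changed 0 symbols. The scanner files were not used here. Rows annotated with exactly 1 gene were kept, the row with the highest mean over the 24 arrays standing for its gene, and no further normalization was applied.

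In R 4.3.3, limma 3.58.1 fitted 8 group means (lmFit, contrasts.fit, eBayes, 16 residual degrees of freedom) and gave the WT change, the *Scnn1b*-Tg change and their difference, with Benjamini-Hochberg adjustment over 19938 genes within each. Alternatives varied the fit, normalization, rows per gene, thresholds and the pools. In simulated data with 19938 genes for the WT comparison, 66 of 67 genes with a log2 change of 1 passed on p and 32 were called, and at 2 all 66 were called. The simulated noise was independent between genes and had 1 SD per gene in all groups. It lacks the wider spread of the PND 3 pools, so recovery in the real data may be lower. Precision is limited by 3 pools an age. Nothing in the labels says that animals of different pools came from different litters, so p values measure the spread between pools. This spread was taken over all 8 groups, so it can understate that of the WT PND 3 pools. The median SD of the WT falls was 0.51 log2 at PND 3 and 0.19 log2 at PND 10. With the compared arrays alone, 7 of the 79 named calls were lost.

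Genes named are the 15 largest rises and falls without overlap between pools, up to 4 list members of lowest p, each list's first marker, every called microRNA gene, the 5 genes of lowest p for the difference between genotypes, and *Clca1*, *Chil3*, *Chil4*, *Tff2*, *Muc5ac* and *Muc5b*. The other called list members, and genes that decide a count, were named after their values were seen. The samples compared and the 63 gene lists were chosen with earlier results of these data known. Sequences are from RefSeq (GRCm38.p6), read and aligned with Biopython 1.88, and figures were drawn with matplotlib 3.10.9.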

Additional observations from a re-analysis of the deposited data

Results flagged for a closer look

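The change from PND 3 to PND 10 differed between the genotypes for 2 genes by the limma contrast of the 2 changes. For *Clca1* the *Scnn1b*-Tg change minus the WT change was -2.54 log2 (SE 0.31, adjusted p = 0.000754), and for *Thbs2* it was -1.23 log2 (SE 0.19, adjusted p = 0.0165). *Clca1* rose in both genotypes, by 5.86 log2 in WT and 3.33 log2 in *Scnn1b*-Tg lungs, and all 3 PND 10 pools lay above all 3 PND 3 pools in each.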

How the results depend on the processing

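None of the 79 named calls in WT reversed under 16 alternatives, and 0 to 20 of them were lost, 20 without WT PND 3 replicate 2, 14 without WT PND 10 replicate 2 and 10 without eBayes moderation. *Aqp3* lost its call under 11 of the 16 and *Chia1* under 10. No pairing of the pools by replicate number was seen. The deviations of same-numbered WT pools correlated at -0.03 to 0.08, and 1 of 3 PND 3 pools lay closest to its own number. With 3 pools an age this cannot show that same-numbered pools were unrelated. The replicate number as a block gave 125 WT rises and 49 falls, 104 and 56 in *Scnn1b*-Tg lungs, and 2 genes for the difference; among the named calls it ended that of *Aqp3* alone. Leaving out 1 pool at a time moved WT rises between 100 and 150, WT falls between 31 (without PND 3 replicate 2) and 96 (without PND 3 replicate 3), *Scnn1b*-Tg rises between 60 and 118, *Scnn1b*-Tg falls between 23 and 86, and the difference between 1 and 21 genes. Where this left 2 pools in a group, their spread was taken from all groups. Without eBayes moderation there were 112 WT rises, 35 WT falls, 36 *Scnn1b*-Tg falls and 1 difference. With array weights there were 124 WT rises, 62 WT falls and 16 differences, and with the compared arrays alone 1 difference. Subtracting array medians gave 108 WT rises and 58 WT falls. Of 1008 recomputed list medians 90 moved by more than the spread between arrays. These included 21 of 63 with dim genes left out and 14 of 63 with array medians subtracted. With all rows in place of 1 per gene there were 229 WT and 178 *Scnn1b*-Tg rises. At a 1.5-fold threshold WT had 449 rises and 204 falls and *Scnn1b*-Tg 285 and 186, and with no fold threshold 600 and 302 against 363 and 237. Calls near 2-fold move with these choices, and levels near the array floor understate changes.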

Other observations

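Among genes in none of the lists, several with a shared annotated role rose, and they are given as values chosen after they were seen. Guidance cues and receptors, known from axons and vessels, were *Slit2* (1.52 log2), *Slit3* (1.26), *Robo2* (1.48), *Sema3g* (1.29), *Sema3c* (1.13), *Plxnc1* (1.36) and *Plxna1* (1.05). *Slit2* was 7.41, 6.72 and 7.93 at PND 3 and 8.75, 9.11 and 8.78 at PND 10, and *Robo2*, a receptor for SLIT proteins, was 6.11, 5.79 and 6.51 at PND 3 and 7.51, 7.96 and 7.38 at PND 10, both without overlap between the ages. Collagen-binding receptors were *Itga1* (1.55 log2), *Itga2* (1.15), *Ddr2* (1.34) and *Mrc2* (1.51), and further ADAMTS proteases were *Adamts10* (1.65) and *Adamts17* (1.58). The nuclear long RNA *Malat1* was 8.02, 8.51 and 8.63 at PND 3 and 9.8, 10.36 and 9.36 at PND 10, a rise of 1.45 log2 (SE 0.3, adjusted p = 0.00561). Its WT means were 11.53, 8.39, 9.84 and 10.57 log2 from PND 0 to PND 42, so PND 10 stayed below PND 0. Muscle genes went both ways: *Mb*, myoglobin, rose by 1.16 log2 (SE 0.28, adjusted p = 0.0182), while *Tnni1*, the slow skeletal troponin I, was 5.16, 5.48 and 5.78 at PND 3 and 4.09, 4.06 and 3.92 at PND 10 and fell by 1.45 log2 (SE 0.24, adjusted p = 0.000725). The 13 listed skeletal muscle genes had 0 calls in limma, with 1 at a p under 0.05 before adjustment. *Ifitm1* and *Ifitm6*, of the interferon-induced transmembrane family, changed by -1.32 and -1.35 log2, and *Trem3*, a myeloid receptor, fell by 1.44 log2 (SE 0.31, adjusted p = 0.00695). The *Ifitm* genes are alike in sequence, so their rows may share signal, and of the 2 rows of *Ifitm1* only 1 passed as lower. The 27 listed interferon-stimulated genes had 0 calls. Their mean level was 6.06 in PND 3 replicate 2 and 5.33 to 5.47 in the other pools.

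Rows that name several genes or none (13767) were not part of any comparison, and 19 of them passed as higher (0.138%) and 15 as lower (0.109%).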
